A study of Mus musculus with 16 samples.

Results

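The comparison described here asks whether a calcium pump placed in striatal astrocytes changed the share of each transcript found on tagged astrocyte ribosomes relative to whole tissue. All 16 of the 16 libraries of the series were used, and they came from 8 mice with both fractions each. The libraries were assigned to groups by label alone, while the gene lists were chosen with earlier results of these data known. For each mouse and gene, the level in the input was subtracted from the level in the ribosome precipitate. The 4 mice with the pump were then set against the 4 control mice. The difference of that value between treatments is the same quantity as the difference of the treatment effect between fractions.

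All mice were adult C57BL/6N mice, and whole striata were taken. Every mouse carried the RiboTag virus, which placed Rpl22-HA, a hemagglutinin-tagged ribosomal protein, in astrocytes. Control mice (Y219, Y221, Y222 and Y257, numbered by animal) also received a virus for a control protein. PMCA mice (Y223, Y225, Y259 and Y295) received a virus for hPMCA2w/b instead. From each homogenate, RNA was prepared from the cleared lysate (input) and from the anti-HA precipitate (IP). The labels do not name age in weeks, sex, viral promoters or the control protein, and 1 control mouse, Y257, has the number Y227 in its source name.

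RiboTag works by pulling down tagged ribosomes together with the transcripts attached to them, so that transcripts of the cell type carrying the tag are enriched over the lysate. Plasma membrane calcium ATPases such as hPMCA2w/b export calcium from the cell, and in astrocytes, which signal through cytosolic calcium rather than action potentials, such a pump dampens calcium signals. Transcripts of other cells and transcripts held in the nucleus are usually depleted in such a precipitate.

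The values are log2 CPM (counts scaled to library size). IP minus input on this scale is called the ratio below. A ratio of 1 thus means a level in the precipitate that is 2-fold the level in the lysate. The deposited scaling factors were 0.891 to 0.918 for IP and 1.099 to 1.122 for input, which raises every ratio. Whether a small ratio lies above or below 0 therefore depends on these factors. The libraries held 32334042 to 40851354 gene reads for input and 46829673 to 58482482 for IP, with ranges that overlapped between treatments within each fraction. More genes had at least 1 read in the PMCA precipitates (18350 to 18742) than in the control precipitates (17912 to 18204). The ratio was above 0 in all 8 mice for 48 of 48 astrocyte markers tested. It was below 0 in all 8 mice for 24 of 24 microglial markers and 28 of 29 striatal projection neuron markers. Enrichment was not limited to astrocyte markers. The ratio was also above 0 in every mouse for 14 of 23 oligodendrocyte and 6 of 11 oligodendrocyte precursor markers, and below 0 throughout for 0. Of the interneuron markers, 13 of 19 were above 0 throughout and 2 below. Of the ependymal and choroid plexus markers, 7 of 10 were above 0 throughout and 2 below. Two-sided limma tests with Benjamini-Hochberg adjustment over all genes tested were used throughout, with an adjusted p under 0.05 as the threshold.

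The ratio differed between PMCA and control mice for 466 of 16673 genes tested. Of these, 278 genes rose, which is 1.67% of the genes tested, and 188 genes fell, which is 1.13%. Among the genes that rose were 7 of the listed nuclear long noncoding RNAs, 8 microglial markers and 3 astrocyte markers. Among those that fell were the secreted Spp1 and Cxcl9, 7 interneuron markers, 3 neurofilament subunits, 4 p53 targets and Rpl22 itself. Over all genes tested the median difference, PMCA minus control, was 0.01 on the log2 scale, with quartiles of -0.14 and 0.17 and a median standard error (SE) of 0.12. The difference was at least 1 in 74 of the genes that rose and at least 1 in size in 30 of those that fell.

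The 4 PMCA mice all lay above the 4 control mice for 274 of the 278 genes that rose, and all lay below them for 187 of the 188 that fell. Over all genes tested, 6.11% had the PMCA mice all above and 6.74% had them all below. At an unadjusted p under 0.05, 3219 genes passed. When all reads were used as the library size in place of the deposited scaling factors, 466 genes passed, 404 of them shared with the fit above, and 46.4% were higher, against 59.7% with the factors. With each mouse centred on its own median ratio, 68% of 478 genes were higher.

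The number of genes passing depended on which mice were in the fit. It was 229 without Y219, 95 without Y221, 271 without Y222 and 224 without Y257 among the control mice. Among the PMCA mice it was 80 without Y223, 96 without Y225, 128 without Y259 and 842 without Y295. In these fits, 67 genes passed without each mouse in turn, 42 higher and 25 lower. Every gene called with all mice kept its direction in each such fit in which it was tested. For the 274 and 187 genes whose mice did not overlap this had to be so, because leaving out a mouse cannot reverse such a difference. With no mean-variance trend in the fit, 49 of 74 called genes that were named by rule or belong to a list did not pass. With the animal as a random replicate block 10 of the 74 did not: Cdr1, St14, Gli3, Kcnj10, Ptprc, Hk2, C1qa, Csf2rb2, Itgax and Mirg (adjusted p = 0.108, 0.0678, 0.124, 0.0795, 0.084, 0.156, 0.185, 0.0661, 0.0738 and 0.0661). Without both Y257 and Y259, whose libraries differ from the others in the X-inactivation transcript Xist (input levels of 6.62 and 7.22 log2 CPM against -0.40 or lower in the other 6 mice), 45 genes passed.

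The ratios moved mainly through the precipitate. In IP alone, 9.54% of 15748 genes tested were higher in PMCA mice and 10.1% were lower. In input alone, 0.362% of 16306 genes tested were higher and 0.0797% were lower. The input count of 72 genes was 1356 without Y257, 33 without Y295 and between 4 and 10 without any 1 of the other mice, and the IP count of 3088 was 1685 without Y221, 2025 without Y222, 2026 without Y223, 1941 without Y225 and 1695 without Y259. Of the 278 genes whose ratio rose, 270 were also higher in IP and did not pass in input. Of the 188 genes whose ratio fell, 167 were lower in IP and did not pass in input. No gene passed in both fractions with opposite directions. For 6 of the genes that rose and 20 of those that fell, neither fraction passed by itself. These include 2 and 1 genes that were not tested in IP. Conversely, 18.1% of the genes higher in IP and 10.6% of the genes lower in IP passed for the ratio in the same direction. These comparisons share their libraries, so their counts describe the composition of the ratio and are not independent of it.

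**Figure D1:**
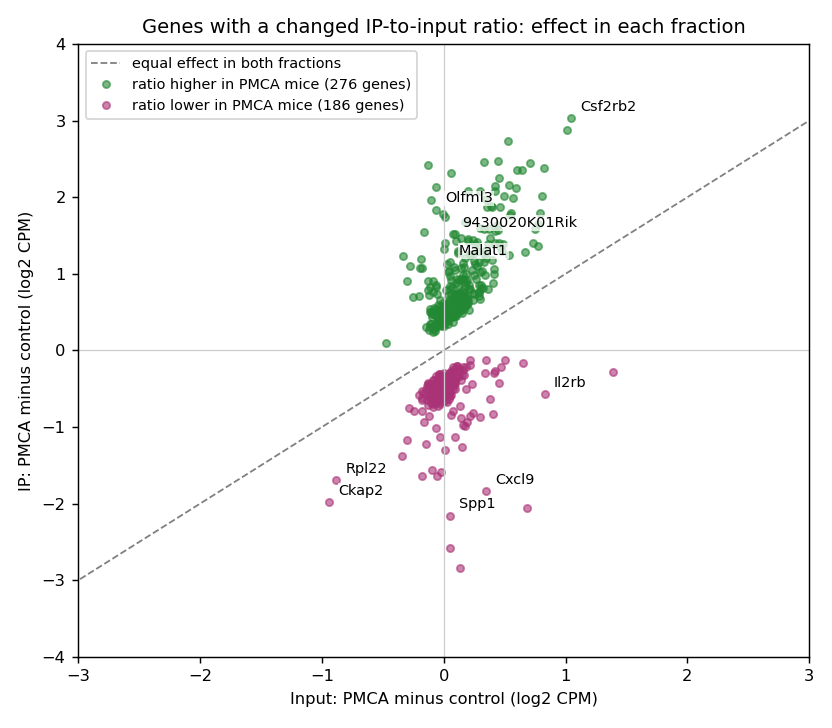
Each point is a gene whose IP-to-input ratio passed the limma test, drawn at its PMCA minus control difference in input (x axis) and in IP (y axis), both in log2 CPM; green genes had a higher ratio and purple genes a lower one, and genes on the dashed line would have equal effects. The points spread along the IP axis, and Rpl22 and Ckap2 stand out with input differences of -0.88 and -0.94, of which that of Rpl22 passed.

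Genes were ranked if they passed, their PMCA and control mice did not overlap, and every group mean was at least 0 log2 CPM. The largest rise among them was that of Olfml3, which encodes a secreted olfactomedin-like protein and is expressed in microglia. Its ratio was -4.32, -3.83, -3.87 and -4.27 in control mice Y219, Y221, Y222 and Y257. It was -2.27, -2.44, -2.26 and -1.70 in PMCA mice Y223, Y225, Y259 and Y295, the order kept for all values below. The difference was 1.90 (SE 0.17, adjusted p = 0.000352). The level in IP rose by 1.84 and the level in input differed by -0.07. Olfml3 lies on chromosome 3 at 103735394 to 103738001 (GRCm38, the assembly of mm10).

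The smallest adjusted p of all genes belonged to 9430020K01Rik, whose current symbol is Jcad, a protein of cell junctions. Its ratio was -0.86, -1.21, -1.14 and -1.12 in control mice and 0.40, 0.45, 0.28 and 0.31 in PMCA mice. With the deposited scaling factors, the transcript thus lay on the depleted side in every control mouse and on the enriched side in every PMCA mouse. The sign of the smaller PMCA ratios depends on those factors. The difference was 1.44 (SE 0.09, adjusted p = 2.46e-05), with 1.52 in IP and 0.07 in input. Hpgd, which encodes the enzyme that inactivates prostaglandins, also changed side with these factors. Its ratios were -1.06, -0.62, -0.63 and -0.60 in control mice and 0.28, 0.51, 0.89 and 0.92 in PMCA mice. Its difference was 1.38 (SE 0.17, adjusted p = 0.00261). Among all genes that rose, 47 changed the sign of their mean ratio on this scale, and 186 had a mean ratio below 0 in control mice.

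The other 9 of the 12 genes with the largest rises by that rule were 4 long noncoding RNAs without an established role here (A930013F10Rik 1.51, A230057D06Rik 1.42, A330023F24Rik 1.33 and Snhg11 1.12), the nuclear transcript Malat1 (1.10), the G-protein regulator Rgs11 (1.10), the integrin subunit Itgam (1.25), the interleukin-10 receptor Il10ra (1.09) and Cdr1 (1.25). All values are differences of the ratio on the log2 scale. The rule admitted only genes whose PMCA and control mice did not overlap, so that their separation is not a finding. Cdr1 overlaps a well-known circular antisense RNA, and whether counting used the strand is not stated, so the reads of both cannot be told apart. Cdr1 did not pass without any 1 of Y219, Y221, Y225 and Y259 (adjusted p up to 0.0922). Malat1 and Rgs11 did not pass without any 1 of Y221, Y257, Y223, Y225 and Y259 (adjusted p up to 0.0858 and 0.0946).

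**Figure D2:**
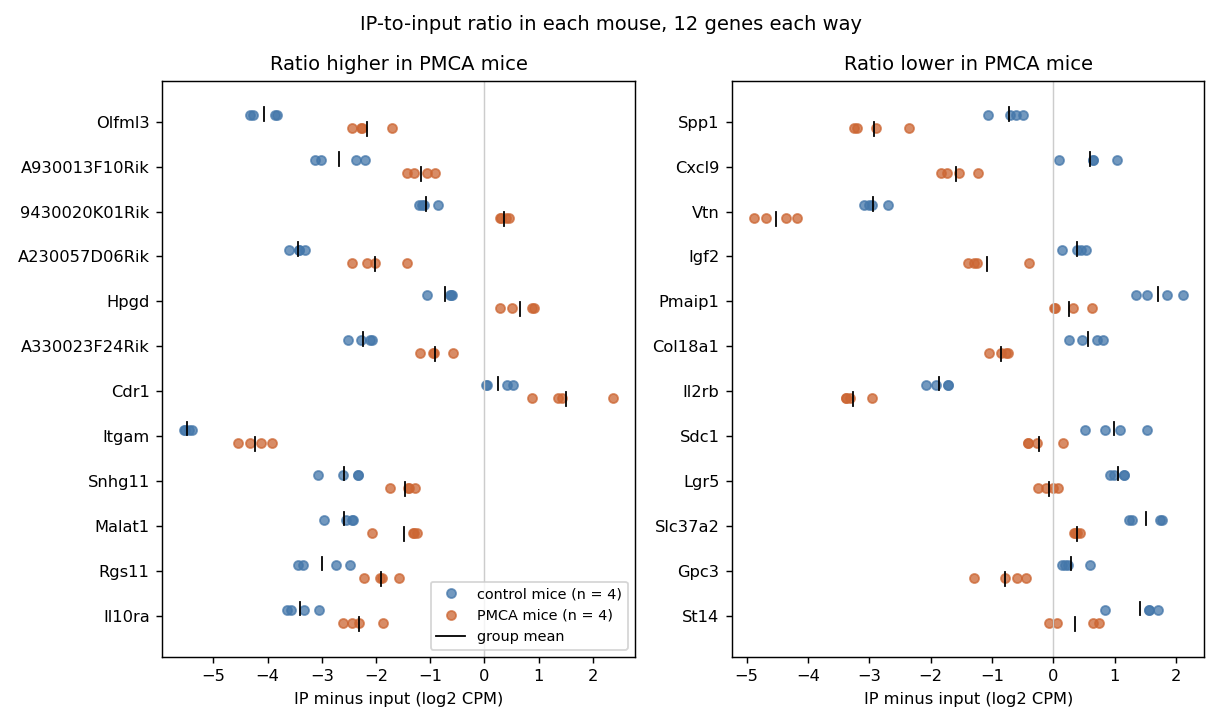
The ratio (IP minus input, log2 CPM, x axis) of the 12 genes with the largest rise (left) and the largest fall (right) in each of 4 control mice (blue) and 4 PMCA mice (orange); black ticks are group means. Within each gene the colours do not overlap, as the rule for choosing the genes required. With the deposited scaling factors, 9430020K01Rik and Hpgd cross from below to above 0. Cxcl9, Igf2, Col18a1 and Gpc3 cross the other way.

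Of 11 members tested of a list of long noncoding RNAs that stay in the nucleus, 7 rose and 0 fell (background 1.67% and 1.13%), and all 11 differences were positive. The median difference was 0.93, against 0.01 over all genes tested. Xist is counted among the 11 although its input level was low in all mice but Y257 and Y259. With at least 10 reads in every library, 10 members were tested, of which 7 rose, and the median difference was 0.92. The list's median ratio was -2.42, -2.60, -2.38 and -3.06 in control mice and -1.42, -1.40, -1.55 and -1.98 in PMCA mice, so the PMCA mice were all closer to 0. Summed over the list, the precipitates held 1720 to 2450 CPM in control mice and 3450 to 6500 CPM in PMCA mice. Most of this sum was Malat1, at 10.345 to 10.943 log2 CPM in control and 11.435 to 12.292 in PMCA precipitates. The sum therefore describes mainly that 1 transcript.

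Malat1, an abundant transcript of nuclear speckles, had ratios of -2.42, -2.54, -2.44 and -2.96 in control mice and -1.32, -1.30, -1.25 and -2.07 in PMCA mice (difference 1.10, SE 0.21, adjusted p = 0.0239). Mouse Y295 was the lowest PMCA mouse, and lay above all control mice as the rule for the largest rises required. Meg3, the imprinted transcript of the Dlk1-Dio3 domain, had ratios of -2.79, -2.90, -2.60 and -3.40 against -1.65, -1.79, -1.80 and -2.31 (difference 1.04, SE 0.17, adjusted p = 0.0124). Rian and Mirg, from the same domain, rose by 0.56 and 1.18. Firre, which organises chromatin, rose by 0.93, and Miat, a speckle-like transcript of neurons, by 0.92. Neat1, the scaffold of paraspeckles, differed by 0.43 (adjusted p = 0.13), Xist by 1.63 with the mice spread widely (adjusted p = 0.146), and Kcnq1ot1 by 0.44 (adjusted p = 0.173). These 3 and Peg13 (0.07) did not pass.

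Long noncoding RNAs were also counted by annotation. Of 893 genes annotated as lncRNA and tested, 34 rose (3.81%) and 1 fell (0.112%), with a median difference of 0.29. Of 15363 protein-coding genes, 235 rose (1.53%) and 186 fell (1.21%), with a median difference of -0.01. The median lncRNA ratio was -0.87, -1.08, -0.94 and -1.01 in control mice and -0.62, -0.65, -0.56 and -0.76 in PMCA mice, with no overlap. Among small noncoding RNAs, the RNA component of RNase MRP, Rmrp, had ratios of -6.60, -7.13, -7.15 and -7.03 in control mice and -5.97, -5.72, -5.66 and -6.57 in PMCA mice and rose (adjusted p = 0.0187), and none of the other 8 tested passed. Of the nuclear list, 3 members passed without Y221, Y223, Y225 or Y259, 4 without Y257 and 1 without both Y257 and Y259, while the median difference stayed between 0.74 and 1.07. With no mean-variance trend 0 of the 11 passed, and with no filter on low values 4 did, at the same median difference of 0.93. Snhg11 and Firre passed without each mouse in turn, and Meg3 failed without Y223 (adjusted p = 0.0559). Miat and Rmrp did not pass without any 1 of Y221, Y223, Y225 and Y259 (adjusted p up to 0.0731 and 0.0702), and Rian and Mirg failed in at least 5 of the 8 fits (adjusted p up to 0.109 and 0.107).

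Transcripts of microglia, the resident macrophages of the brain, came closer to their lysate level for 8 of the listed genes. Of 24 microglial markers tested, 8 rose and 0 fell (background 1.67% and 1.13%), and the median difference was 0.81. The median ratio of the list was -5.44, -5.42, -5.19 and -5.47 in control mice and -4.61, -4.67, -4.64 and -3.94 in PMCA mice, so these transcripts stayed strongly depleted in both. Their summed level in the precipitates was 77.7 to 100 CPM in control mice and 106 to 193 CPM in PMCA mice. In the lysate it was 1660 to 2490 and 2110 to 2590 CPM, and no member passed in input. In a bulk lysate, a different number of cells of a type and a different amount of RNA per cell cannot be told apart. The source of the microglial transcripts in the precipitate was not tested.

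Itgam, the integrin alpha chain of complement receptor 3, had ratios of -5.46, -5.53, -5.55 and -5.39 in control mice and -4.13, -4.33, -4.54 and -3.92 in PMCA mice. Its difference was 1.25 (SE 0.13, adjusted p = 0.00132), with 1.58 in IP and 0.33 in input. Csf1r, the receptor that microglia need for survival, had ratios of -5.74, -5.46, -5.18 and -5.59 against -4.70, -4.61, -4.64 and -4.69 (difference 0.83, SE 0.11, adjusted p = 0.00369). For both genes the groups did not overlap, which the rule for the largest rises required of Itgam. The other 6 that rose were Fcrls (1.37), the phosphatase Ptprc (0.88), the receptor Gpr34 (0.95), the lipid receptor Trem2 (0.87), the lectin Siglech (0.99) and the complement subunit C1qa (0.47). The lowest group mean of Fcrls was -1.59 log2 CPM. With at least 10 reads in every library, 23 microglial markers were tested, of which 8 rose. The homeostatic markers Cx3cr1 (1.37, adjusted p = 0.176) and Tmem119 (1.29, adjusted p = 0.22) did not pass, although their PMCA mice were all above the control mice. P2ry12 (-0.32), Cd68 (-0.11) and Fcer1g (-0.01) had differences below 0 and did not pass either.

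Receptors and signalling proteins of leukocytes were among the genes that rose. Of 29 chemokines and leukocyte receptors tested, 6 rose and 2 fell (background 1.67% and 1.13%), with a median difference of 0.41. The sialic-acid lectin Cd33 rose by 1.67 (SE 0.21, adjusted p = 0.00317), with ratios of -3.60, -3.85, -4.17 and -4.23 against -2.45, -2.30, -2.53 and -1.90. The adaptor Pram1 rose by 1.50 and the cytokine receptor chains Csf2rb and Csf2rb2 by 1.74 and 1.99. The myosin Myo1f rose by 1.62 and the integrin Itgax by 1.21. Levels were low: the lowest group mean was -1.22 log2 CPM for Cd33, -0.72 for Pram1 and -1.74 for Csf2rb. These lie below the level asked of the largest rises. With at least 10 reads in every library, 20 of the 29 genes were tested, of which 5 rose and 2 fell. The 2 that fell were the secreted Cxcl9 and Spp1, described below. Csf2rb and Csf2rb2 are close copies, so reads may have been divided between them.

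How far the rise of microglial transcripts and that of nuclear RNAs have to do with each other, or with the other genes that rose, was not tested. Leaving out Y295 gave 12 microglial markers higher and 1 lower. Leaving out Y223 gave 3 higher, leaving out Y219, Y221, Y225, Y257 or Y259 gave 4, and leaving out both Y257 and Y259 gave 2. With no mean-variance trend 2 microglial markers rose. Of the chemokine and leukocyte list, 3 rose without Y223, Y225 or Y259, and the median difference was 0.08 without Y295 and 0.23 without Y219. Itgam, Csf1r, Fcrls, Cd33, Pram1 and Csf2rb passed without each mouse in turn. Ptprc did not without Y223, Y225 or Y259 (adjusted p up to 0.0614), and Gpr34, Trem2, Siglech and C1qa each failed without at least 5 of the mice taken singly (adjusted p up to 0.101, 0.0946, 0.0819 and 0.101). Csf2rb2, Myo1f and Itgax failed likewise (adjusted p up to 0.0847, 0.0918 and 0.102).

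**Figure D3:**
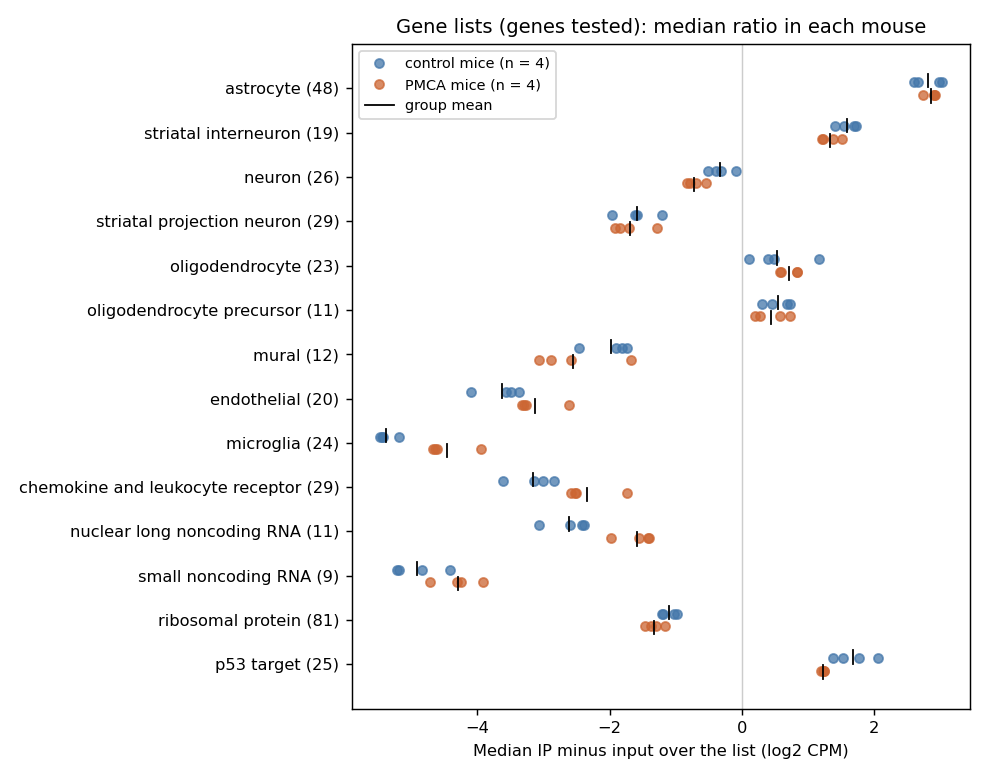
The median ratio (IP minus input, log2 CPM, x axis) over the tested genes of 14 lists in each of 4 control mice (blue) and 4 PMCA mice (orange), with the number of genes tested in brackets and black ticks for group means. The microglial and nuclear long noncoding RNA lists are shifted towards 0 in all PMCA mice, the neuron list lies lower in all of them, and the astrocyte list overlaps between treatments.

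Vessel-associated transcripts gave no single direction. Of 20 endothelial markers tested, 2 rose and 0 fell (background 1.67% and 1.13%), and the median difference was 0.22. That median was -0.11 without Y295, where 1 marker fell, 0.08 without Y257 and 0.38 without Y259. Ly6a, a surface antigen of endothelium, rose by 0.92 (SE 0.13, adjusted p = 0.00495) and Ly6c1 by 1.28 (SE 0.19, adjusted p = 0.00781). Both belong to the Ly6 family of near-identical genes, and how reads were divided among its members is not known. Kdr, a receptor for vascular growth factor, differed by -0.67 (adjusted p = 0.0991) and did not pass. Of 12 mural cell markers, 0 rose and 1 fell, which was Vtn (3 fell without Y295), and of 9 leptomeningeal markers 0 rose and 1 fell, which was Igf2.

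The largest falls, by the same rule as the rises (group means of at least 0 log2 CPM, no overlap), were those of Spp1 and Cxcl9. Spp1, which encodes the secreted phosphoprotein osteopontin, had ratios of -1.07, -0.61, -0.70 and -0.49 in control mice and -3.21, -3.24, -2.35 and -2.89 in PMCA mice. Its difference was -2.21 (SE 0.21, adjusted p = 0.000598), with -2.16 in IP and 0.05 in input. Spp1 lies on chromosome 5 at 104435111 to 104441053 in GRCm38, on the same chromosome as Cxcl9 at 92321331 to 92328079. Cxcl9, an interferon-induced chemokine, had ratios of 0.65, 0.64, 1.04 and 0.10 against -1.23, -1.74, -1.83 and -1.54, a difference of -2.19 (SE 0.18, adjusted p = 0.000262). With the deposited scaling factors, Cxcl9 went from enriched in every control mouse to depleted in every PMCA mouse. The sign of the 0.10 in Y257 depends on those factors. Cxcl10, a chemokine of the same family, differed by -0.26 (adjusted p = 0.315) and did not pass. Of 22 interferon response genes tested, Cxcl9 was the 1 that fell and 0 rose (background 1.13% and 1.67%).

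Vtn, the adhesion protein vitronectin made by pericytes, had ratios of -2.96, -3.09, -2.70 and -3.01 against -4.89, -4.18, -4.69 and -4.36 (difference -1.59, SE 0.15, adjusted p = 0.000598). Igf2, a growth factor of the meninges and choroid plexus, had ratios of 0.39, 0.54, 0.15 and 0.45 against -1.39, -1.24, -1.30 and -0.39 (difference -1.46, SE 0.20, adjusted p = 0.00483). Col18a1, the basement membrane collagen from which endostatin is cut, fell by 1.41, and the proteoglycans Sdc1 and Gpc3 by 1.23 and 1.08. The sugar-phosphate transporter Slc37a2 fell by 1.13, the receptor Lgr5 by 1.13 and the membrane protease St14 by 1.07. Levels in input differed for these 6 genes by between -0.15 (Gpc3) and 0.41 (Sdc1), and none passed there. Sdc1 did not pass without Y221, Y223 or Y259 (adjusted p up to 0.0658). Gpc3 did not without Y219, Y221, Y257, Y223 or Y225 (adjusted p up to 0.0946), and St14 did not without any 1 of Y219, Y221, Y222, Y223, Y225 and Y259 (adjusted p up to 0.112).

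Il2rb, a chain of cytokine receptors of lymphocytes, combined differences of both fractions. Its ratio was -1.72, -1.91, -1.71 and -2.08 in control mice and -3.38, -3.32, -3.38 and -2.96 in PMCA mice (difference -1.40, SE 0.17, adjusted p = 0.0024). The level in IP differed by -0.57 (adjusted p = 0.213) and in input by 0.83 (adjusted p = 0.143), and neither passed by itself. The complement component C3 differed by 0.32 in IP and by 1.34 in input, and its ratio did not pass (difference -1.02, adjusted p = 0.0961).

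General neuronal transcripts included genes that fell. Of 26 general neuronal markers tested, 6 fell and 1 rose (background 1.13% and 1.67%), with a median difference of -0.26. The 1 that rose was the noncoding Snhg11, which is also on the nuclear list. The median ratio of the list was -0.09, -0.39, -0.51 and -0.31 in control mice and -0.83, -0.79, -0.70 and -0.55 in PMCA mice. The 6 that fell were the neurofilament subunits Nefh (-0.74), Nefm (-0.48) and Nefl (-0.47), the GABA-synthesising enzyme Gad1 (-0.60), the vesicular GABA transporter Slc32a1 (-0.58) and the extracellular protein Reln (-0.60). Gad1 had ratios of -0.02, -0.30, -0.44 and -0.22 against -0.90, -0.89, -0.83 and -0.76 (SE 0.10, adjusted p = 0.0103). Its companion enzyme Gad2 differed by -0.48 (adjusted p = 0.109) and did not pass. Mouse Y295 had a Gad2 ratio of -0.45, within the control range of -0.67 to -0.08.

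Of 19 tested markers of striatal interneurons, the local cells that use acetylcholine or GABA, 7 fell and 0 rose (background 1.13% and 1.67%). The median difference was -0.34. The median ratio was 1.72, 1.54, 1.41 and 1.70 in control mice and 1.37, 1.23, 1.51 and 1.21 in PMCA mice, and overlapped between treatments. In all, 13 of the 19 genes had a ratio above 0 in all 8 mice. The summed level in the precipitates was 1580 to 1680 CPM in control mice and 1260 to 1450 CPM in PMCA mice, and 348 to 394 CPM over all lysates. The source of these transcripts in an astrocyte precipitate was not tested.

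Slc5a7, the high-affinity choline transporter of cholinergic cells, had ratios of 2.35, 2.40, 2.31 and 2.20 in control mice and 1.58, 1.61, 1.74 and 1.58 in PMCA mice. Its difference was -0.68 (SE 0.07, adjusted p = 0.00132), with -0.50 in IP and 0.18 in input. Chat, which synthesises acetylcholine, had ratios of 2.50, 2.54, 2.49 and 2.46 against 1.81, 2.07, 2.02 and 2.01 (difference -0.52, SE 0.08, adjusted p = 0.00661). The groups were well separated for both genes. Pvalb, the calcium buffer of fast-spiking cells, fell by 1.03 (SE 0.14, adjusted p = 0.00495), and Pthlh, a peptide hormone of the same cells, by 0.95 (SE 0.15, adjusted p = 0.0113). Nos1 (-0.47), the vesicular glutamate transporter Slc17a8 (-0.49) and the transcription factor Lhx6 (-0.34) also fell.

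Markers of the projection neurons, the main striatal cell type, gave no call. Of 29 tested, 0 rose and 0 fell (background 1.67% and 1.13%), and the median difference was -0.05. It was -0.23 without Y295 and -0.17 without Y222, where 1 marker fell in each case, and 0.08 without Y219, 0.04 without Y259 and 0.01 without Y223. Penk, the enkephalin precursor of the indirect pathway, differed by -0.34 (adjusted p = 0.238), and the dopamine receptor Drd2 by 0.22 (adjusted p = 0.474). Whether projection neuron and interneuron markers differ in their response was not tested. Of 23 oligodendrocyte and 11 oligodendrocyte precursor markers, 0 passed, with median differences of 0.21 and -0.08. Without Y257, 3 oligodendrocyte markers rose and their median was 0.41, and it was 0.06 without Y219. Without Y295, 2 precursor markers fell. Of the neuronal list, 10 fell without Y295, 3 without Y221, Y223, Y225 or Y259, 4 without Y219 or Y257, and 1 without both Y257 and Y259. Of the interneuron list, 4 fell without Y221 or Y223 and 2 without both Y257 and Y259. Nefh, Gad1, Slc32a1, Slc5a7, Chat, Pvalb and Pthlh passed without each mouse in turn. Lhx6 failed in all 8 of these fits (adjusted p up to 0.141), and Nefm, Nefl, Reln, Nos1 and Slc17a8 each failed in 3 or more of the 8 fits (adjusted p up to 0.124, 0.135, 0.101, 0.0655 and 0.0769).

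Rpl22, the ribosomal protein that the tag is built on, fell in both fractions and fell further in the precipitate. Its ratio was 1.98, 2.27, 2.43 and 2.14 in control mice and 1.43, 1.24, 1.50 and 1.42 in PMCA mice (difference -0.81, SE 0.10, adjusted p = 0.00261). The level fell by 1.69 in IP (SE 0.09, adjusted p = 1.92e-05) and by 0.88 in input (adjusted p = 0.000489). It was the 1 gene that was lower in both fractions and passed for the ratio. Counts at Rpl22 may hold reads of the mouse gene and of the viral Rpl22-HA, which were not separated here, and the part of this fall in the other differences was not tested. Rpl22 lies on chromosome 4 at 152324436 to 152334082 in GRCm38. The paralog Rpl22l1 differed by -0.07 (adjusted p = 0.804).

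Of 81 ribosomal protein genes tested, 3 fell and 0 rose (background 1.13% and 1.67%), with a median difference of -0.20. Besides Rpl22 these were Rpl6 (-0.37, adjusted p = 0.0239) and Rpl15 (-0.30, adjusted p = 0.0402). The list was lower in IP for 64 of 80 genes tested there and for 1 of 81 in input, which was Rpl22. Over all genes tested, 10.1% were lower in IP and 0.0797% in input. The median ratio was -1.21, -1.20, -0.98 and -1.02 in control mice and -1.37, -1.46, -1.16 and -1.30 in PMCA mice. Of 83 genes of the mitochondrial respiratory chain, 58 of 82 were lower in IP and 0 of 83 passed for the ratio, with a median difference of -0.12. Leaving out Y295 gave 12 ribosomal protein genes lower, and leaving out Y221, Y222, Y223 or Y225 gave 1 and leaving out Y257 or Y259 gave 2. With all reads as the library size the count was 9. Rpl6 did not pass without Y221, Y222, Y223 or Y225 (adjusted p up to 0.0848), and Rpl15 passed only without Y295 (adjusted p up to 0.12 in the other fits).

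Targets of p53, the transcription factor of the DNA damage response, included genes whose fall was larger in the precipitate. Of 25 tested, 4 had a lower ratio and 0 a higher one (background 1.13% and 1.67%), with a median difference of -0.12. In IP, 18 of 25 were lower, and in input 5 of 25. Over all genes tested, 10.1% were lower in IP and 0.0797% in input. Pmaip1, which encodes the pro-apoptotic protein Noxa, had ratios of 1.53, 1.86, 2.12 and 1.35 in control mice and 0.32, 0.63, 0.03 and 0.01 in PMCA mice (difference -1.46, SE 0.22, adjusted p = 0.00781). Mdm2, the ligase that degrades p53, had ratios of 0.70, 0.85, 0.93 and 0.73 against 0.42, 0.21, 0.20 and 0.32 (difference -0.51, SE 0.08, adjusted p = 0.00967). For both genes the input difference was small, -0.18 and -0.11. Ckap2, a spindle protein, fell by 1.04 (adjusted p = 0.0232) and the kinase Plk2 by 0.58 (adjusted p = 0.04).

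The cell cycle inhibitor Cdkn1a fell by 0.75 in IP and by 0.81 in input, so that its ratio differed by 0.06 (SE 0.19, adjusted p = 0.904). Phlda3 (-0.60 in IP and -0.62 in input), Ccng1 (-0.43 and -0.46), Eda2r (-0.89 and -0.77) and Aen (-0.54 and -0.43) likewise fell in both fractions, and their ratios differed by 0.02, 0.03, -0.12 and -0.11 without passing. In all, 11 genes were lower in both fractions and 42 were higher in both. Of these, 1 of the 11 and 2 of the 42 passed for the ratio. The 2 were the noncoding RNAs Ftx (0.78) and 5031426D15Rik (0.59). Gdf15, a stress-induced cytokine, differed by -1.20 without passing (adjusted p = 0.139). Ckap2 did not pass without Y219, Y221, Y222, Y223 or Y259 (adjusted p up to 0.0774), and Plk2 did not without any 1 of Y219, Y221, Y257, Y223, Y225 and Y259 (adjusted p up to 0.124). Without Y219, Y221, Y223 or Y259, 2 of the p53 targets passed.

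**Figure D4:**
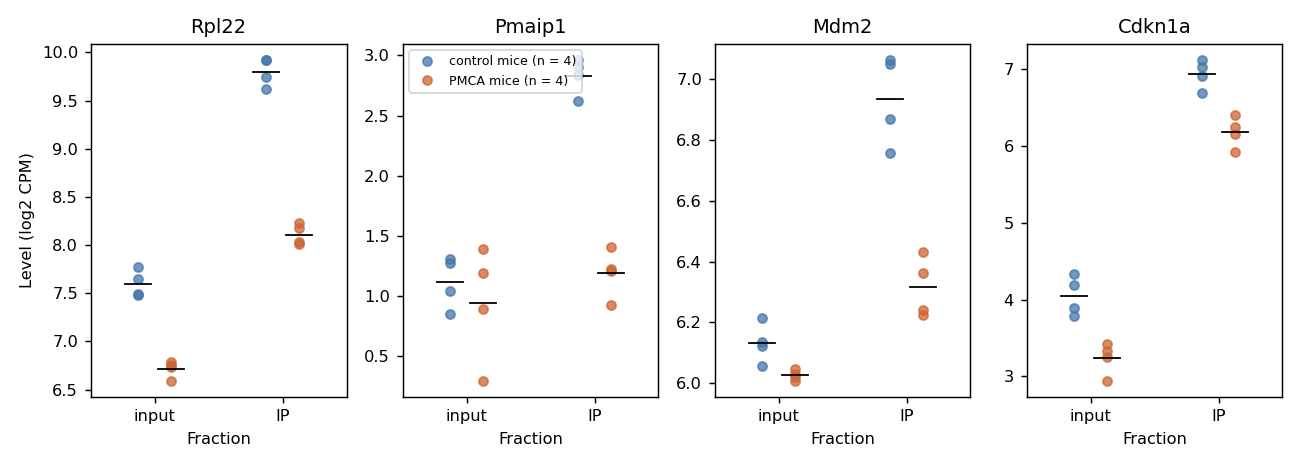
Levels (log2 CPM, y axis, a separate scale per gene) of Rpl22, Pmaip1, Mdm2 and Cdkn1a in input and IP of 4 control mice (blue) and 4 PMCA mice (orange), with bars for group means. Rpl22 and Cdkn1a are lower in both fractions of the PMCA mice, whereas Pmaip1 differs mainly in IP.

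Astrocyte markers were enriched under both treatments. Of 48 tested, 3 rose and 0 fell (background 1.67% and 1.13%), and the median difference was 0.07. The median ratio was 2.60, 3.03, 2.98 and 2.66 in control mice and 2.90, 2.92, 2.90 and 2.74 in PMCA mice, with overlapping groups. The 3 that rose act at the membrane or in development: Atp1b2, a subunit of the sodium pump (0.54, SE 0.11, adjusted p = 0.0323), Kcnj10, the inward rectifier that clears potassium (0.38, SE 0.09, adjusted p = 0.0489), and Gli3, a transcription factor of the hedgehog pathway (0.32, SE 0.08, adjusted p = 0.0465). Kcnj10 had ratios of 3.36, 3.67, 3.77 and 3.55 against 3.96, 3.89, 4.00 and 4.00. Without any 1 of Y221, Y223, Y225 and Y259 none of the 3 passed (adjusted p up to 0.0964 for Atp1b2, 0.124 for Kcnj10 and 0.138 for Gli3), and none did with no mean-variance trend. Without Y295, 5 astrocyte markers rose, and without Y259, 1 fell.

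The remaining markers fixed for naming did not pass. Aldh1l1, the folate enzyme used to mark astrocytes, differed by 0.16 (SE 0.12), the intermediate filament Gfap by 0.23 (SE 0.14), and S100b by 0.29 (SE 0.10). The glutamate transporters Slc1a2 and Slc1a3 differed by 0.09 (SE 0.17) and -0.08 (SE 0.12), the water channel Aqp4 by -0.11 (SE 0.12), and the GABA transporter Slc6a11 by -0.07 (SE 0.12). The inositol trisphosphate receptor Itpr2, which releases calcium from stores in astrocytes, differed by -0.11 (SE 0.15). Aldh1l1 and Itpr2 were higher in IP by 0.44 and 0.39, with 0.28 and 0.49 in input.

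Among 40 mouse genes of calcium pumps, exchangers and stores, 0 passed in either direction (background 1.67% higher and 1.13% lower). The median difference was -0.05. Atp2b2, the mouse counterpart of the viral pump, had ratios of -0.47, -0.81, -1.01 and -0.78 in control mice and -0.75, -0.69, -0.56 and -0.20 in PMCA mice, and the groups overlapped (difference 0.21, SE 0.14, adjusted p = 0.443). The viral pump is a human sequence, and whether any of its reads were counted at mouse Atp2b2 was not tested. Without Y295 the median of the calcium genes was -0.14 and 1 fell. Genes that mark reactive astrocytes gave 0 calls in the pan-reactive list (13 tested), the A1 list (12 tested) and the A2 list (11 tested), with median differences of -0.04, -0.05 and 0.00. The first turned to 0.02 without Y221 and 0.06 without Y222, and the second to 0.03 without Y222. Serpina3n, a protease inhibitor of the pan-reactive list, was higher by 1.01 in IP, and its ratio differed by 0.01.

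Single members of other functional lists passed, where 1.67% of all genes tested rose and 1.13% fell. A single passing gene in a list of 16 to 24 is not a result about that list. In the unfolded protein response list, the membrane protein Herpud1 fell by 0.48 (SE 0.07, adjusted p = 0.00582), from ratios of 0.18, 0.23, 0.11 and 0.17 to -0.32, -0.24, -0.36 and -0.32, and asparagine synthetase Asns fell by 0.46. These were 2 of 22 tested. The transaminase Got1 fell by 0.44 (1 of 16 glutamate genes), hexokinase Hk2 rose by 0.65 (1 of 24 glycolytic genes), and Srebf2, the regulator of cholesterol synthesis, rose by 0.39 (1 of 23 tested). Among astrocyte factors that act on synapses, the receptor Ephb1 rose by 0.43 and the secreted Lgi1 fell by 0.54, out of 22. Herpud1 passed without each mouse in turn. The other 6 did not pass without Y221, Y223 or Y225, with adjusted p up to 0.109 for Asns, 0.0703 for Got1, 0.118 for Hk2 (0.156 with the animal as a random replicate block), 0.141 for Srebf2, 0.106 for Ephb1 and 0.117 for Lgi1. Of 24 immediate early genes, 0 passed.

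The share of genes that rose was highest among the transcripts most depleted from the precipitate. When genes were put in classes by their mean ratio over all 8 mice, which weights both treatments equally, 504 genes lay below -3. Of these, 46 rose (9.13%) and 1 fell (0.198%), and the median difference was 0.81. The median ratio of this class was -4.16, -4.37, -4.13 and -4.53 in control mice and -3.78, -3.61, -3.50 and -3.16 in PMCA mice, with no overlap. Between -3 and -1, 63 of 2594 genes rose and 18 fell, with a median difference of 0.11. Between -1 and 1, 131 of 10831 rose and 150 fell, and the median difference was -0.02. Between 1 and 3, 34 of 2615 rose and 18 fell, and above 3, 4 of 129 rose and 1 fell, with medians of 0.03 and 0.11.

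**Figure D5:**
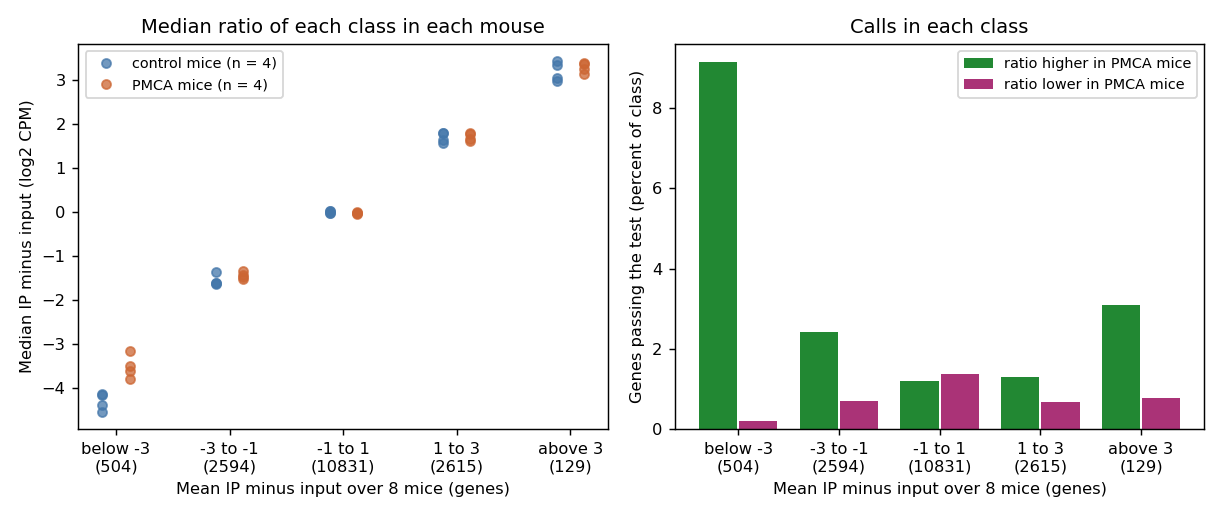
Genes grouped by mean ratio over 8 mice (x axis, number of genes in brackets): left, the median ratio of each class in each of 4 control mice (blue) and 4 PMCA mice (orange), in log2 CPM; right, the percent of each class that passed the limma test as higher (green) or lower (purple). In the class below -3 the colours are apart on the left, and 9.13% of its genes rose.

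The low end of the distribution lay higher in every PMCA mouse than in every control mouse, while its width and its high end overlapped. This held for the genes tested, and the difference of 0.402 depended on the genes with few reads: it was 0.049 (exact permutation test, adjusted p = 0.829) when at least 10 reads were asked of every library and 0.221 (adjusted p = 0.171) with a prior count of 2. The 5th percentile of the ratio over all genes tested was -2.45, -2.67, -2.56 and -2.86 in control mice and -2.35, -2.24, -2.20 and -2.14 in PMCA mice. The means were -2.63 ± 0.17 (SD, n = 4) and -2.23 ± 0.09 (SD, n = 4). An exact permutation test over the mice gave p = 0.0286, the smallest that 4 against 4 mice allow, and 0.0857 after Benjamini-Hochberg adjustment over the 3 values tested. The 95th percentile was 2.19 ± 0.14 and 2.20 ± 0.10 (SD, n = 4 each, exact p = 0.886), and the interquartile range 1.31 ± 0.11 and 1.30 ± 0.06 (SD, n = 4 each, exact p = 0.829). Genes in the lowest class have few reads in the precipitate, and their lowest ratios are limited by the prior count that was added before logs were taken.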

How the data were processed

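Striatal RNA of 8 mice was sequenced as input and as astrocyte ribosome precipitate (16 libraries). Per the submitters' processing notes, the authors' tools were STAR, HTSeq, edgeR and limma, with genome build mm10. Their versions, settings, annotation and use of strand: not given in the sources used here. Each deposited file lists log2 CPM of 20730 genes, scaled by the authors to effective library sizes. Undoing the log2 scale and a prior count of 0.25 on average gave whole reads (tolerance 0.001) for 100.0% of 331680 values, which gave depth. A count-based test in edgeR or DESeq2 was not used on these log2 values.

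A gene was tested if 4 or more libraries held at least 10 of its reads (scaled to median size) and all libraries together 15. For each gene and mouse, input was subtracted from IP, and the differences were fitted with limma 3.58.1 in R 4.3.3 (eBayes with a mean-variance trend, Benjamini-Hochberg adjustment). Subtraction pairs the fractions by animal number, as the labels give it. In a check of the pairing over 16673 genes, deviations of input and IP from their group means were correlated. The values were 0.114 to 0.327 in the 8 same-mouse pairs and -0.195 to 0.078 in the 24 pairs of different mice of 1 treatment. Pairs across treatments are not in that range. Among all IPs, 6 of 8 inputs correlated best with their own IP, and the others with an IP of the other treatment. IP and input were also fitted separately. The fitting code was tested on simulated data.

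Genes were named by rule: the 12 largest differences each way among genes past the threshold with non-overlapping mice and group means of at least 0 log2 CPM, 11 fixed genes, and up to 4 members of the smallest p per list. Other list members are named from their list's counts, chosen after their values were seen. Members and gene lists were chosen with earlier results of these data known. The grouping by annotated gene kind and the accounts of genes called in both fractions were chosen after the first results. Of the gene names, 19546 were symbols of RefSeq GRCm38.p6, 1071 were synonyms only and 113 matched neither. Mitochondrially encoded genes were not analysed here. A gene that the rule named and a list member are not reported here. Intervals for counts were not computed. The alternatives are in the closing section.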

Additional observations from a re-analysis of the deposited data

Results flagged for a closer look

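The effect of the pump differed between the fractions, by the test of the difference itself, for 278 genes with a higher ratio and 188 with a lower one, as described above.

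In 282 groups of 4 mice looked at for the named genes, 12 held a mouse whose gap to the nearest other mouse, as a share of the group's whole range, was above Dixon's critical value (chance alone gives about 1 group in 20). Among control mice these shares were 0.949 for the ratio of Hpgd, 0.935 for Atp1b2 and 0.876 for Lgi1. Among PMCA mice they were 0.907 for Malat1, 0.896 for Miat, 0.849 for Igf2, 0.851 for Il2rb, 0.845 for Scarna2, 0.890 for Gad2, 0.852 for Cxcl10, 0.923 for Irf9 and 0.848 for Ckap2. The mouse that stood apart was the lowest control mouse, Y219, for Hpgd and Atp1b2, and Y295 for Malat1, Miat, Igf2, Il2rb and Gad2.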

How the results depend on the processing

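Of 466 genes called for the ratio, 29 were called in all 21 alternatives, and every one tested kept its direction in each. That direction could not change where a mouse was left out of groups that did not overlap. Nor could it where a setting, such as no mean-variance trend or robust eBayes, left the difference itself as it was. Without the pairing by animal (no replicate block) 162 genes rose and 177 fell, and with the animal as a random replicate block 351 rose and 381 fell (732 in all, consensus correlation 0.188). With no filter 155 rose and 117 fell (272), with no mean-variance trend 37 and 29 (66), with the animal number set as a covariate and Y257 placed as Y227 108 and 86 (194), and without both Y257 and Y259 30 and 15 (45). The other settings left both counts within 1.5 times: voom weights 246 and 199, a prior count of 2 282 and 190, robust eBayes 312 and 215. Leaving out 1 mouse gave 80 to 842 genes for the ratio (51 to 450 higher, 29 to 392 lower), 1685 to 3573 in IP (811 to 1756 higher, 801 to 1817 lower) and 4 to 1356 in input (0 to 939 higher, 4 to 417 lower). The cause of these differences was not tested. With all reads as library size, the class from -3 to -1 held 48 lower genes, that from 1 to 3 held 19 higher, and that above 3 held 2 higher and 0 lower, since the classes themselves shift. The difference of the 95th percentile was -0.022 with no filter and -0.022 with all reads, and -0.037 to 0.055 with 1 mouse left out. That of the interquartile range was 0.023 with at least 10 reads in every library and -0.069 to 0.010 with 1 mouse left out. That of the 5th percentile was 0.327 to 0.463 with 1 mouse left out, 0.364 with all reads, 0.570 with no filter, 0.221 with a prior count of 2 and 0.049 with at least 10 reads in every library. Of the settings tried for single named genes, 237 took a call below the threshold, 29 lifted one above it and 4 changed a direction, all of genes that did not pass: Rpl22l1 at 0.022 without Y219 (-0.172 to 0.022 with 1 mouse left out), Slc6a11 at 0.019 without Y222 (-0.160 to 0.019), Itpr2 at 0.003 without Y222 (-0.253 to 0.003), and Enkur at 0.058 with the animal number set as a covariate and Y257 placed as Y227. Genes with few reads in IP have the least certain ratios.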
